A study of Homo sapiens with 24 samples.

Results

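Peaks at 10 human genes tied to fetal globin regulation were taken from CUT&RUN peak lists of tagged TR4 and tagged BCL11A in HUDEP-2 cells. HUDEP-2 is an immortalised human line of erythroid progenitors. The genes were ZBTB7A, MYB, HBS1L, SOX6, IKZF1, NFIA, NFIX, HIC2, ARID3A and ATF4, which are 10 of 20037 protein-coding gene records, and every peak that overlapped a record or the 10 kb on either side of it was used. For MYB and HBS1L the 126 kb between the 2 records on chromosome 6 was added. CUT&RUN brings a nuclease to chromatin through an antibody and sequences the fragments it releases, so a peak marks a place where the antibody's target was on or near the DNA.

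The 24 libraries came from 3 edited clones. Clone T has TR4 with FLAG and MYC epitopes at its C terminus. Clone B has BCL11A with HA and MYC epitopes, and both changes are present in clone TB. TR4-directed libraries were those with the MYC antibody in clone T, the TR4 antibody in clone T and the TR4 antibody in clone TB. BCL11A-directed libraries were those with the MYC antibody in clone B, the HA antibody in clone B and the HA antibody in clone TB. Each of these 6 groups holds 3 libraries, so 9 TR4-directed libraries were set against 9 BCL11A-directed ones. In clone TB the MYC antibody (3 libraries) can report either protein, so those libraries are described but were not tested, and 1 IgG library per clone gives the background. All clones were grown in the same expansion medium with no further treatment, each genotype is a single clone, and no untagged clone was analysed here. Nothing in the labels ties the replicates to separate cultures, so p-values reflect how far these libraries vary, and that variation may be technical only. The tests count the 18 libraries as independent, although those of a group share clone and antibody and clone TB stands on both sides. The p-values therefore do not cover variation between clones. Only binding was recorded, so neither the expression of these genes nor that of erythroid markers was measured.

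TR4 (NR2C2) is an orphan nuclear receptor that binds direct repeats of the AGGTCA motif, and BCL11A is a zinc finger repressor that binds TGACCA in the fetal globin promoters. The 10 genes are tied to fetal globin in several ways, HBS1L through its position beside MYB. ZBTB7A represses the fetal globin genes directly, SOX6 works with BCL11A, and IKZF1 is a zinc finger factor of blood cells. MYB maintains erythroid progenitors, and the DNA between HBS1L and MYB holds distal enhancers of MYB and common variants tied to fetal haemoglobin level. NFIA and NFIX are nuclear factor I proteins, HIC2 represses BCL11A in fetal cells, ATF4 is the effector of the HRI stress kinase, and ARID3A binds AT-rich DNA.

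Promoter sequences are shown for 5 members whose 5′ end carried peaks of both proteins or, at NFIA, the site with the highest fold in the TR4-directed libraries among the members' regions that passed the test between targets. Each runs 5′ to 3′ from 250 bases before a RefSeq start site (GRCh38) through the first 20 bases from it. Capitals mark the letter matches described after them.
ZBTB7A (chr19:4066880-4067149, minus strand): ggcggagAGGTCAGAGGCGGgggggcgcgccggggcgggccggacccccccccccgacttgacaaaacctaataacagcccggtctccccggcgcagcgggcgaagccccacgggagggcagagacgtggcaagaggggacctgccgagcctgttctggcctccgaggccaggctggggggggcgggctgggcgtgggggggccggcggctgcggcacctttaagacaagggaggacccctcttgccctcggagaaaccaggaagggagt
HBS1L (chr6:135054803-135055072, minus strand): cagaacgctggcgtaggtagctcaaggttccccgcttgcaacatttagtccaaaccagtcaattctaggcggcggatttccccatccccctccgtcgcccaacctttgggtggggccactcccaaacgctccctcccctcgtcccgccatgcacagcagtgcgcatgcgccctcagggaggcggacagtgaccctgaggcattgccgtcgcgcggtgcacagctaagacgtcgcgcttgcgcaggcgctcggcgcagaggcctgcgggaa
HIC2 (chr22:21417121-21417390, plus strand): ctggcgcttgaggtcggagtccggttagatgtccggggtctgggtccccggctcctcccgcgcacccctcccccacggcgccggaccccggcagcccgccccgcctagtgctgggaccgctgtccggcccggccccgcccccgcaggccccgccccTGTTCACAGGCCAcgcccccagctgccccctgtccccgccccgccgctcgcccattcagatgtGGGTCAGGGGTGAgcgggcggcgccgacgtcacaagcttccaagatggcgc
NFIA (chr1:61082311-61082580, plus strand): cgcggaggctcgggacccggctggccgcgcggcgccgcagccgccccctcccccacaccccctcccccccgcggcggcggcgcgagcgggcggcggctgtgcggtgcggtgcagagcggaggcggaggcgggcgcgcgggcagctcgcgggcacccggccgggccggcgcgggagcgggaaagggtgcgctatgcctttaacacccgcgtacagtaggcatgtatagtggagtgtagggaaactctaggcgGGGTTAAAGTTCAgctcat
MYB (chr6:135181058-135181327, plus strand): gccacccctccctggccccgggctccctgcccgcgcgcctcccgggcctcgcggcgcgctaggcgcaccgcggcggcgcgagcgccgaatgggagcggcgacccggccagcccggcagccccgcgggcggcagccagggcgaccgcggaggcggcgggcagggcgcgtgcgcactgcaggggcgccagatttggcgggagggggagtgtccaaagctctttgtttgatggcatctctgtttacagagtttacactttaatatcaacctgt
Positions are counted from the start site, whose own base is 0. In ZBTB7A the capitals begin with AGGTCA, 243 to 238 bases before the start. In the NFIA window, whose start site lies 5334 bases into the gene, they mark bases 1 to 13, a pair of 6-letter motifs in the same direction 1 base apart, in which 3 of the 12 letters differ from 2 copies of AGGTCA. HIC2 holds 2 such loose pairs, at -94 to -82 and at -31 to -19, and the capitals of ZBTB7A also cover one. No capitals stand in HBS1L or MYB.

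The promoter table held 23 windows of 300 bases for 9 members, ARID3A not among them, and 35116 windows in all. Both strands were searched. TGACCA was in none of the members' windows and in 10.7% of all windows. AGGTCA was in 4 windows of 3 members and in 13.8% of all. The exact pair, 2 copies of AGGTCA in the same direction 1 base apart, each match of which also counts as AGGTCA, was in none of the members' windows and in 8 windows overall. AGATAA, the motif of GATA factors, was in 2 members (10.3% of all windows), and CACGTG, the E-box, was in 2 (7.26%): in ATF4 it lies 82 to 77 bases before the start. The loose pair, defined after the NFIA sequence had been read, was in 7 windows of 5 members, and 20.9% of all windows hold one. Absence from a window says nothing about the factor.

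Gene ends were windows of 1 kb around either end of a record, and the gene body was the rest of the record. ZBTB7A, HBS1L, NFIA and HIC2 had a peak at a gene end in all 18 libraries of the 2 targets, as did 6.96% of all genes. ATF4 had one in 7 of the TR4-directed libraries against 9 of the BCL11A-directed ones, MYB in 5 TR4-directed against 8 BCL11A-directed libraries, SOX6 in 4 TR4-directed against 3 BCL11A-directed libraries, ARID3A in 4 TR4-directed against 5 BCL11A-directed libraries, and IKZF1 in 0 TR4-directed against 1 BCL11A-directed library. At the ends of NFIX the count was 0 of 9 for TR4-directed libraries against 9 of 9 for BCL11A-directed ones. It was the only one of the 9 members tested whose ends passed the test between targets (Fisher's exact test, two-sided, adjusted p = 0.00205 with Benjamini-Hochberg adjustment over 9585 genes). Of all genes tested, 11.6% passed at their ends, 10.7% towards BCL11A and 0.856% towards TR4. No IgG library had a peak at an end of any member.

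In the bodies, NFIA, NFIX and ARID3A had a peak in all 18 libraries, as did 1.55% of all genes. IKZF1 had one in 2 TR4-directed libraries, both in clone TB, against 9 BCL11A-directed ones, and was the only one of 9 members tested to pass (Fisher's exact test, adjusted p = 0.0149), where 24.2% of 5148 genes passed (0.855% towards TR4 and 23.3% towards BCL11A). SOX6 had a body peak in 2 TR4-directed against 8 BCL11A-directed libraries, MYB in 3 TR4-directed against 8 BCL11A-directed libraries, and HIC2 in 4 TR4-directed against 9 BCL11A-directed libraries, and none of these passed (exact test, adjusted p = 0.0544 for SOX6, 0.126 for MYB and 0.0831 for HIC2). ZBTB7A had one in 6 TR4-directed against 8 BCL11A-directed libraries, and HBS1L in 2 TR4-directed against 3 BCL11A-directed libraries. ATF4, at 2128 bases, is so short that its end windows cover nearly the whole record, and no peak fell in the gap between them. An IgG peak stood in the bodies of ZBTB7A and NFIA, in clone B only. Over the whole locus with its flanks, 9.95% of 13236 genes passed (0.453% towards TR4 and 9.5% towards BCL11A), and IKZF1 was again the only member (exact test, adjusted p = 0.0266).

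**Figure D1:**
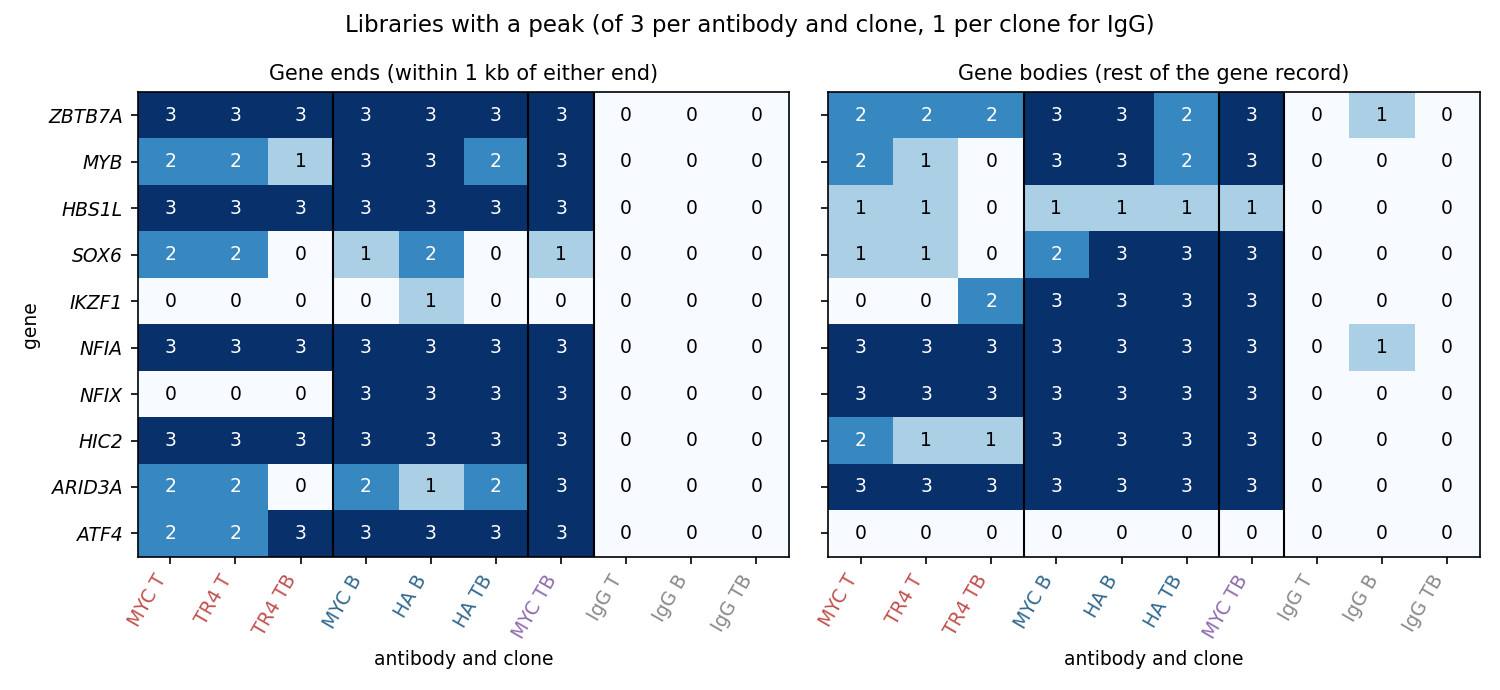
Number of libraries with a peak at the gene ends (left) and in the gene body (right) of each of the 10 genes, for each antibody and clone, with TR4-directed groups in red, BCL11A-directed groups in blue, the MYC antibody in clone TB in purple and IgG in grey. ZBTB7A, HBS1L, NFIA and HIC2 read 3 in every target group at their ends, and NFIX reads 0 in the TR4-directed groups and 3 in the BCL11A-directed groups.

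BCL11A-directed libraries had longer peak lists, which bears on every count here. The lists held 4621 to 14924 peaks in TR4-directed libraries and 12284 to 31432 in BCL11A-directed ones. Sequencing depth is not known from the files. Counts are therefore also given after each list was reduced to its 4621 peaks of highest -log10 q, called equal length below. At equal length 36.9% of 4814 genes passed at their ends, 38.9% of 1570 genes in their bodies and 40.7% of 7560 regions. The ends of NFIX still passed (0 TR4-directed against 8 BCL11A-directed libraries, exact test, adjusted p = 0.00212), those of ATF4 also did (0 TR4-directed against 7 BCL11A-directed libraries, exact test, adjusted p = 0.00878), and IKZF1 had no peak left in its body in any of the 18. The body of NFIA then had a peak in 9 TR4-directed libraries against 1 BCL11A-directed library (exact test, adjusted p = 0.00226).

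To compare sites one by one, peaks of all libraries were merged into regions where they shared a base. The loci and the stretch held 177 regions, 6 of which an IgG peak touched, and 81 were tested. Of these, 24 passed, 22 with more BCL11A-directed and 2 with more TR4-directed libraries. That is 29.6%, against 27.6% of 24485 regions genome-wide (25.6% towards BCL11A and 2% towards TR4), so the members' share is near the background. NFIX held 12 of the 24, the stretch between HBS1L and MYB 3, NFIA 3, IKZF1 2, and ZBTB7A, MYB, HIC2 and ARID3A 1 each. By place, 17 lay in gene bodies, 3 at gene ends and 4 outside the records. Fold enrichments are the authors' own value for a peak in its list, so they are set side by side and not tested.

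ZBTB7A, the direct repressor of the fetal globin genes, was marked at its 5′ end in the libraries of both targets. The region over its 5′ end (chr19:4066731-4067405) was in all 18 libraries. Its fold was lowest at 9.84, median 12.004 and highest at 19.8 in the TR4-directed libraries, against 11.7, 24.2 and 41.2 in the BCL11A-directed ones. Every BCL11A-directed library but 1 lay at or above 17.5, and every TR4-directed library but 1 at or below 13.5, so the groups overlapped only through single libraries. The median summit, the base of highest signal in a peak, differed by 252 bases, at 4067149 with TR4 as target and 4066897 with BCL11A, but single summits overlapped (4066883 to 4067227 with TR4, 4066874 to 4067227 with BCL11A). In TR4-directed libraries the median is the first base of the sequence printed above, position -250, with the AGGTCA at -243 to -238. In BCL11A-directed libraries it is 2 bases after the start site. The TR4-directed summits fell at separate places, so their median does not stand for all. They were 4067227, 4067227 and 4067149 with the MYC antibody in clone T. With TR4 they were 4066883, 4067227 and 4067149 in clone T and 4067137, 4066894 and 4067146 in clone TB. A second region, chr19:4065788-4066183, was also in all 18, with median folds of 17.5 in TR4-directed against 20.5 in BCL11A-directed libraries and median summits 19 bases apart, and it lies in the 1 kb window of the gene's other start site (4065529). Inside the gene, chr19:4058366-4058634 had a peak in 0 TR4-directed against 7 BCL11A-directed libraries (exact test, adjusted p = 0.0130), with folds of 4.23 to 13.6.

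SOX6, an HMG-box factor that works with BCL11A, spans 772029 bases and held 0 to 4 peaks per TR4-directed library and 0 to 8 per BCL11A-directed one over its locus. Its 5′ end region (chr11:16738431-16738647) had a peak in 4 TR4-directed libraries, all in clone T, with folds of 7.42, 10.0, 10.6 and 15.7, against 3 BCL11A-directed libraries, all in clone B, with 4.39, 4.90 and 7.09. All of the TR4-directed folds were above the BCL11A-directed ones, and in clone TB neither the TR4 nor the HA antibody gave a peak there, while the MYC antibody did in 1 of 3 libraries (fold 7.93). That region ends on the first base of the C11orf58 record, so the 2 genes cannot be told apart by position. In the body, chr11:16605998-16606477 was in 2 TR4-directed against 7 BCL11A-directed libraries (exact test, adjusted p = 0.127).

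IKZF1, which encodes Ikaros, had a peak anywhere in its locus in 2 TR4-directed libraries, the fewest of the 10 genes. None of 6 TR4-directed libraries in clone T had a peak in the locus, and in clone TB 2 of 3 had one. All 9 BCL11A-directed libraries had between 2 and 8 peaks. The region chr7:50393687-50393970, 90.4 kb into the gene and across the end of the non-coding record LOC124901631, was in 0 TR4-directed against 9 BCL11A-directed libraries (exact test, adjusted p = 0.000938). Its folds there were 11.8, 15.2 and 7.55 with the MYC antibody in clone B, 11.7, 11.5 and 9.10 with HA in clone B, and 8.02, 4.47 and 4.26 with HA in clone TB. All clone B values but 1 were above those of clone TB. A second body region, chr7:50340292-50340447, was in 0 TR4-directed against 6 BCL11A-directed libraries (exact test, adjusted p = 0.0328), with folds of at most 6.81. That call was lost without replicate 3 of every group (0 TR4-directed against 4 BCL11A-directed libraries, exact test, adjusted p = 0.125) and when regions marked in as few as 1 library were tested (adjusted p = 0.0895). Both TR4-directed peaks fell in chr7:50355775-50356038, where 8 BCL11A-directed libraries also had one (exact test, adjusted p = 0.0501).

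MYB, the progenitor transcription factor, had its 5′ end region (chr6:135181118-135181396) in 4 TR4-directed against 8 BCL11A-directed libraries (exact test, adjusted p = 0.221). The listed folds were 5.52 to 8.36 in TR4-directed libraries and 6.80 to 18.9 in BCL11A-directed ones, so they overlapped. Summits in the printed sequence lay between -115 and -62 in 3 TR4-directed libraries and between -115 and -48 in 8 BCL11A-directed ones. A body region 10.6 kb into the gene, chr6:135191816-135192041, was in 0 TR4-directed against 7 BCL11A-directed libraries (exact test, adjusted p = 0.0130), and a neighbour at 11.1 kb in 3 TR4-directed against 8 BCL11A-directed libraries (exact test, adjusted p = 0.115). HBS1L, which encodes a GTPase of ribosome rescue, shared its 5′ end region (chr6:135054664-135055058) across all 18 libraries. The fold there was 5.52, 18.3 and 23.9 (lowest, median, highest) in TR4-directed libraries against 9.38, 12.7 and 27.8 in BCL11A-directed ones, and the groups overlapped. Median summits were 1 base apart, and in TR4-directed libraries the median lay 54 bases before the start site. The region also overlaps the non-coding record LOC124901405. The rest of the HBS1L record had a peak in 2 TR4-directed against 3 BCL11A-directed libraries.

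The stretch from HBS1L to MYB (chr6:135054823-135181307) held more peaks in BCL11A-directed libraries. With the MYC antibody in clone T it had 4, 4 and 1 peaks, with TR4 in clone T 2, 2 and 1, and with TR4 in clone TB 1, 2 and 1. With the MYC antibody in clone B it had 8, 10 and 4 peaks, with HA in clone B 6, 8 and 4, and with HA in clone TB 7, 7 and 3. The ranges, 1 to 4 for TR4-directed and 3 to 10 for BCL11A-directed libraries, overlap at 3 and 4. Peaks over the HBS1L 5′ end reach into the stretch and are counted in it, as are those at the MYB 5′ end. At the MYB 5′ end, chr6:135181118-135181396 had a peak in 4 TR4-directed against 8 BCL11A-directed libraries. Beside it, chr6:135180542-135180679 had one in 1 TR4-directed against 6 BCL11A-directed libraries. The stretch without these gene-end regions was not tested. Mean peak numbers were 2 ± 1.22 (SD, n = 9) with TR4 as target and 6.33 ± 2.29 (SD, n = 9) with BCL11A as target, and the TR4 mean minus the BCL11A mean was -4.33 (exact permutation test, two-sided, p = 0.000411). Per 10000 peaks of each list the difference was -0.805 (exact permutation test, p = 0.00983), and at equal length it was -0.778 and did not pass (exact permutation test, p = 0.0633). MYC antibody libraries of clone TB had 6, 5 and 3 peaks there, and the IgG libraries 1 in clone T and 0 in the others.

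Within the stretch, 3 regions passed, all towards BCL11A and all between 71.0 and 87.5 kb upstream of MYB. At -71.0 kb, chr6:135110094-135110494, which crosses the end of the non-coding record LOC105378010, had a peak in 2 TR4-directed against 9 BCL11A-directed libraries (exact test, adjusted p = 0.0130). The 2 TR4-directed folds were 4.18 and 4.72, both with the MYC antibody in clone T, against 10.5, 14.5 and 22.7 (lowest, median, highest) in BCL11A-directed libraries. Here the listed folds did not overlap. At equal length the counts were 0 TR4-directed against 7 BCL11A-directed libraries, and without replicate 3 of every group the call was lost (2 TR4-directed against 6 BCL11A-directed libraries, exact test, adjusted p = 0.125). At -87.5 kb, chr6:135093614-135093949 was in 0 TR4-directed against 8 BCL11A-directed libraries (exact test, adjusted p = 0.00394), with folds up to 24.7. At -83.8 kb, chr6:135097399-135097573 was in 0 TR4-directed against 6 BCL11A-directed libraries (exact test, adjusted p = 0.0328). Neither of these overlaps a RefSeq record.

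**Figure D2:**
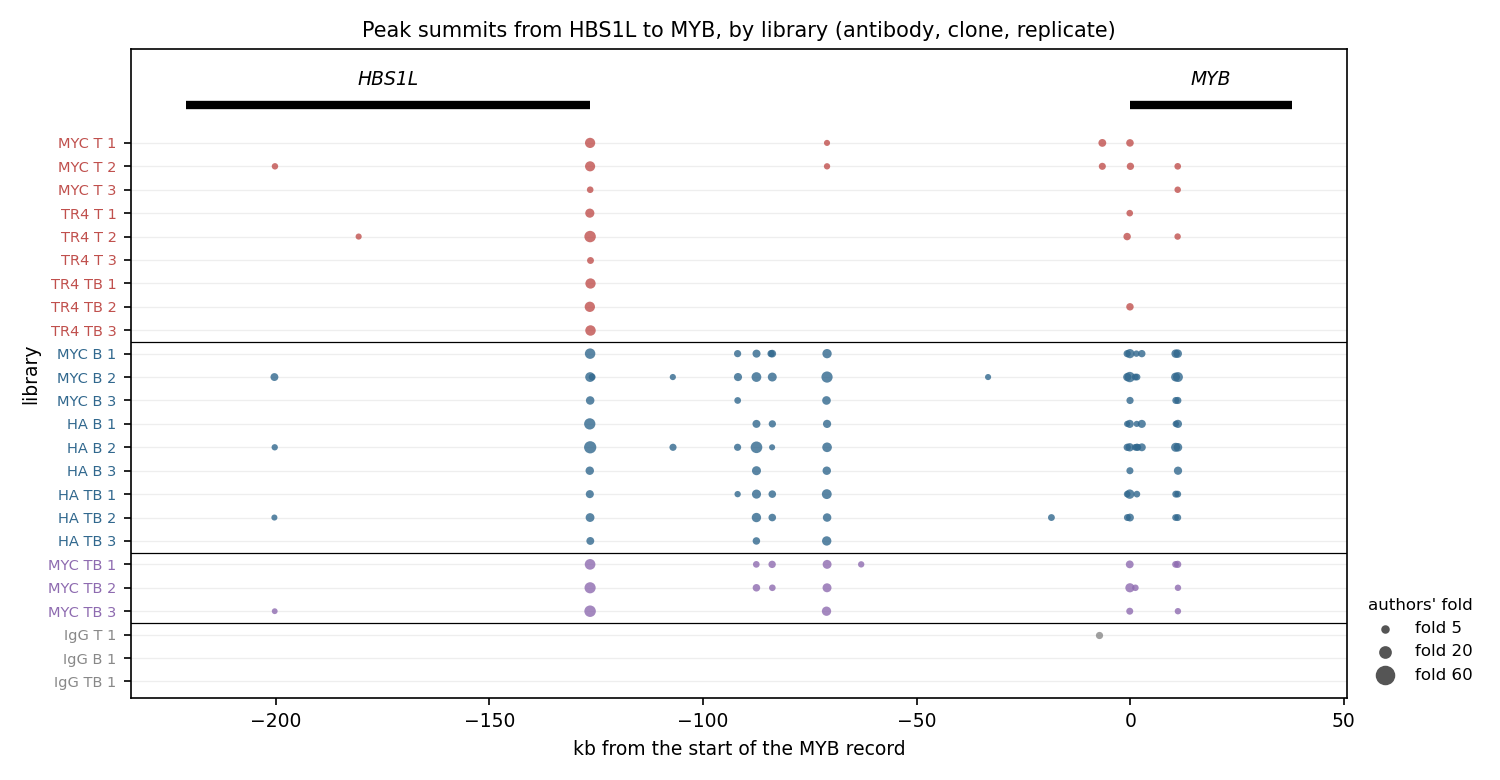
Summits of all peaks from 10 kb beyond HBS1L to 10 kb beyond MYB, in kb from the start of the MYB record, with a row per library, TR4-directed rows (red) above BCL11A-directed rows (blue), then the MYC antibody in clone TB (purple) and IgG (grey), and dot area growing with the authors' fold. The HBS1L 5′ end is marked in all 18 tested libraries, and the column at -71.0 kb is filled in all 9 BCL11A-directed rows and in 2 TR4-directed rows.

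NFIA, a nuclear factor I gene, held 1 of the 2 regions that passed towards TR4. At 5.36 kb into the record, chr1:61082491-61082673 covers the gene's start site at 61082561 and was in 9 TR4-directed against 3 BCL11A-directed libraries (exact test, adjusted p = 0.0328). The folds were 104, 125 and 41.6 with the MYC antibody in clone T, 67.6, 99.3 and 27.4 with TR4 in clone T, and 69.9, 83.4 and 49.1 with TR4 in clone TB. Those of the BCL11A-directed libraries were 6.07 and 5.71 with HA in clone B and 7.03 with HA in clone TB, and no peak was listed with the MYC antibody in clone B. The groups did not overlap, and the TR4-directed folds ranked at a percentile of 91.8 or above in their own lists. With the MYC antibody in clone TB, where either protein can be reported, the folds were 98.9, 93.0 and 86.4. TR4-directed summits lay between -4 and 16 from the start site, median 4, around the capitals of the printed sequence. At equal length the counts were 9 TR4-directed against 0 BCL11A-directed libraries (exact test, adjusted p = 0.000319). Without replicate 3 of every group, an alternative chosen after seeing the data, they were 6 TR4-directed against 3 BCL11A-directed libraries, and the call was lost (exact test, adjusted p = 0.327). It was also lost without the MYC antibody (exact test, adjusted p = 0.372) and when regions marked in as few as 1 library were tested (adjusted p = 0.0895).

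Other NFIA regions went both ways. Its first 5′ end had chr1:61077908-61078238 in 9 TR4-directed against 8 BCL11A-directed libraries, with median folds of 21.6 with TR4 as target against 12.1 with BCL11A, and chr1:61076910-61077260 in 7 TR4-directed against 7 BCL11A-directed libraries. Far into the gene, 176 kb from its start and across the end of the antisense record NFIA-AS1, chr1:61253410-61253682 was in 9 TR4-directed against 5 BCL11A-directed libraries (exact test, adjusted p = 0.146). Its folds were 6.73, 16.9 and 33.1 (lowest, median, highest) in TR4-directed libraries and 3.68, 4.09 and 6.37 in BCL11A-directed ones, which do not overlap. At equal length it was in 9 TR4-directed against 0 BCL11A-directed libraries (exact test, adjusted p = 0.000319). In between, a pair of regions passed towards BCL11A: chr1:61176072-61176293 was in 0 TR4-directed against 7 BCL11A-directed libraries (exact test, adjusted p = 0.0130) and chr1:61204635-61204808 in 0 TR4-directed against 8 BCL11A-directed libraries (exact test, adjusted p = 0.00394).

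NFIX, another nuclear factor I gene, had the highest mean number of BCL11A-directed peaks per library of the 10 genes. TR4-directed libraries had 2 to 6 peaks in its locus, against 13 to 30 in BCL11A-directed libraries, with no overlap, and MYC libraries of clone TB had 15 to 16. Of its 12 regions that passed, 6 had a peak in 0 TR4-directed against 9 BCL11A-directed libraries (exact test, adjusted p = 0.000938). One of them was chr19:13069421-13069948, 74.2 kb into the gene, with folds of 45.0, 43.8 and 29.9 with the MYC antibody in clone B, 35.3, 44.3 and 30.7 with HA in clone B, and 16.98, 28.2 and 21.3 with HA in clone TB. These ranked at a percentile of 87.8 or above in their lists, and no TR4-directed library had a peak. Another, chr19:13022905-13023143, 27.5 kb into the gene, overlaps the upstream edge of the 1 kb window of the start site at 13023972, with BCL11A-directed folds of 6.05, 15.6 and 28.4 (lowest, median, highest). A further region, chr19:13097927-13098849, covers the 3′ end of the record, with folds of 7.30, 31.0 and 44.5. The 3′ end had a peak in 0 TR4-directed against 9 BCL11A-directed libraries, and the 5′ end in 0 TR4-directed against 5 BCL11A-directed libraries, all 5 in clone B. The 3′ end lies close to LYL1, a blood transcription factor gene, and chr19:13099469-13099699, which also passed, is inside the LYL1 record.

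The shared body region of NFIX had the opposite order of folds. The region chr19:13051551-13051921, 56.3 kb into the gene, was in 9 TR4-directed against 8 BCL11A-directed libraries. Its folds were 9.64, 13.8 and 20.5 (lowest, median, highest) in TR4-directed libraries, against 3.61, 6.52 and 9.21 in BCL11A-directed ones, so the groups did not overlap. At equal length it was in 9 TR4-directed against 0 BCL11A-directed libraries (exact test, adjusted p = 0.000319), and the region 74.2 kb into the gene was in 0 TR4-directed against 9 BCL11A-directed libraries at the same p. The flank region over the right end of the LYL1 record, chr19:13102495-13103410, was in all 18, with median folds of 16.7 in TR4-directed against 27.1 in BCL11A-directed libraries.

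**Figure D3:**
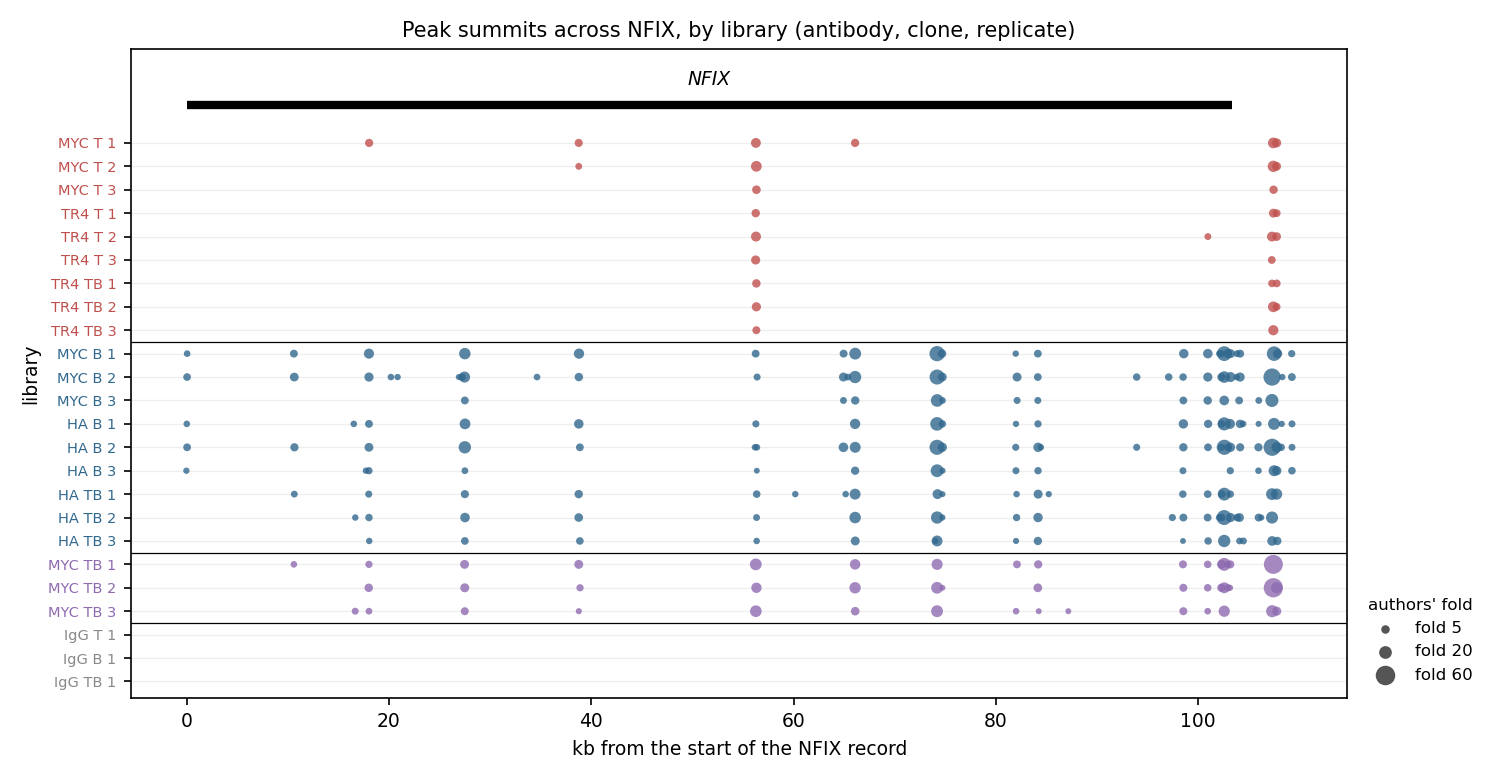
Summits of all peaks across NFIX with 10 kb on either side, in kb from the start of its record, with rows, colours and dot areas as in the map from HBS1L to MYB. The column at 56.3 kb runs through the TR4-directed and nearly all BCL11A-directed rows, while the columns at 27.5 and 74.2 kb are filled in every BCL11A-directed row and in no TR4-directed row.

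HIC2, the repressor of BCL11A, had the same median summit in the libraries of both targets at its promoter. Its 5′ end region (chr22:21417178-21417426) was in all 18 libraries, with folds of 6.13, 32.4 and 59.1 (lowest, median, highest) in TR4-directed libraries against 8.42, 17.7 and 37.9 in BCL11A-directed ones, which overlapped. All 9 TR4-directed summits lay on the same base, 64 bases before the start site, and the BCL11A-directed ones lay between -102 and -64 with the same median. That base falls between the 2 stretches of capitals in the printed sequence. In the body, chr22:21440677-21440898 was in 2 TR4-directed against 9 BCL11A-directed libraries (exact test, adjusted p = 0.0130), with folds of 7.64 and 9.18 in the TR4-directed ones, against 5.03, 12.02 and 34.0 (lowest, median, highest) in the BCL11A-directed ones. At equal length it was in 0 TR4-directed against 5 BCL11A-directed libraries, which did not pass (exact test, adjusted p = 0.0591). The call was also lost without replicate 3 of every group (2 TR4-directed against 6 BCL11A-directed libraries, exact test, adjusted p = 0.125) and without the MYC antibody (adjusted p = 0.0656).

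ATF4, the stress-response activator, had its main region (chr22:39519961-39520328) in 7 TR4-directed against 9 BCL11A-directed libraries, just upstream of the record. The listed folds were 5.32, 8.80 and 10.7 (lowest, median, highest) in TR4-directed libraries and 9.80, 20.6 and 26.1 in BCL11A-directed ones, overlapping only between 9.80 and 10.7. Over complete lists the counts did not pass (exact test, adjusted p = 0.646), and at equal length they were 0 TR4-directed against 7 BCL11A-directed libraries (exact test, adjusted p = 0.00789). The region over the start itself, chr22:39520467-39520618, was in 1 TR4-directed against 4 BCL11A-directed libraries.

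ARID3A, whose product binds AT-rich DNA, had a peak inside the gene in every library. The region chr19:940535-941290, 15.2 kb from the left end of the record, was in all 18 libraries and had the highest median folds among the members' regions shared by all 18: 46.9, 93.2 and 143 (lowest, median, highest) in TR4-directed libraries against 22.3, 45.4 and 69.1 in BCL11A-directed ones. The ranges overlapped, and both sat at a percentile of 96.3 or above in their lists. Median summits fell on the same base, 941069. A second shared region, chr19:944065-944461, had median folds of 12.7 in TR4-directed against 14.1 in BCL11A-directed libraries and again the same median summit. Beyond the right end, 55.0 kb from the left one and in no gene record, chr19:980632-980773 was in 8 TR4-directed against 1 BCL11A-directed libraries (exact test, adjusted p = 0.0178), with TR4-directed folds of 10.3 to 37.7 against 6.93 in the BCL11A-directed library. It lies between the records of ARID3A and WDR18, and which gene it belongs to was not tested. At equal length the counts were 8 against 0.

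**Figure D4:**
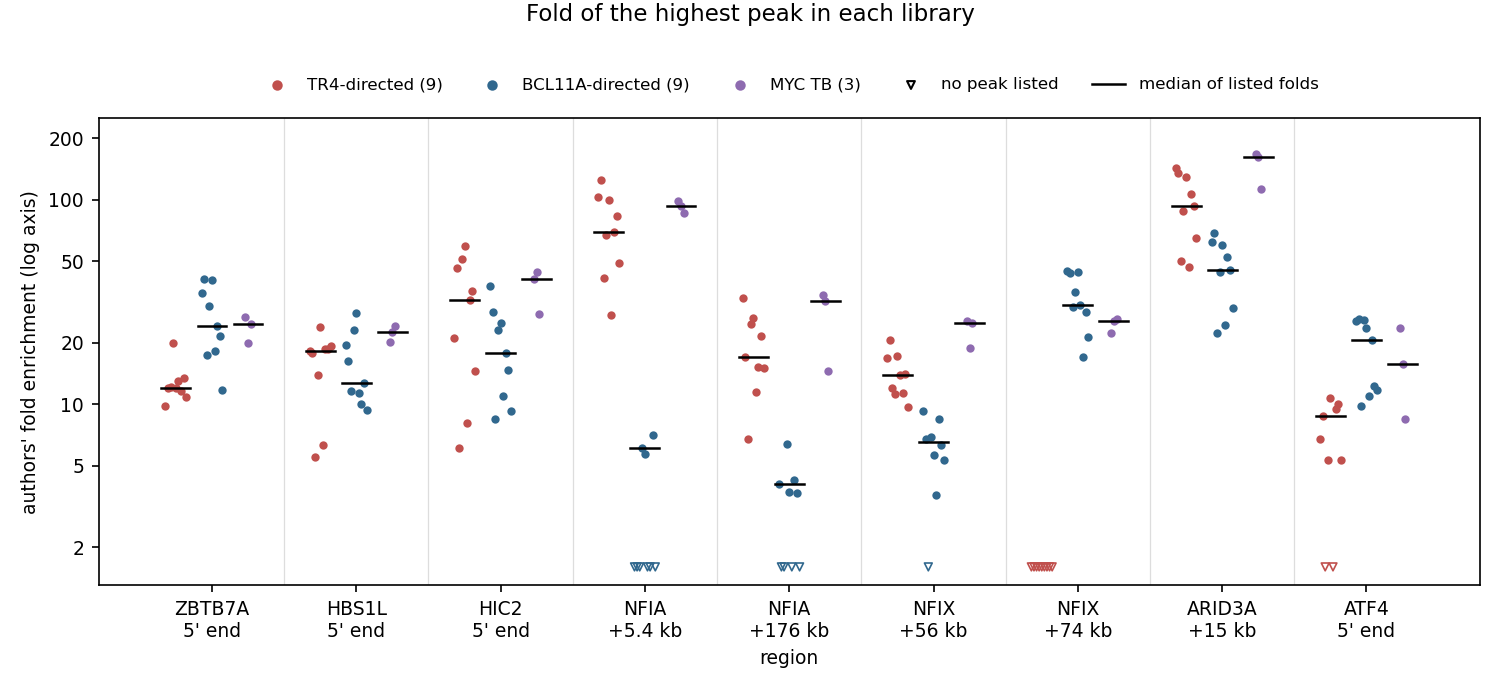
The authors' fold (log axis) of the highest peak in each library at 9 regions, with TR4-directed libraries (red) left of BCL11A-directed libraries (blue) and the MYC antibody in clone TB (purple) last, bars at the median of listed folds and open triangles where no peak was listed. At NFIA +5.4 kb the red points lie between 27.4 and 125 and the blue between 5.71 and 7.03, and at NFIX +74 kb no red point is listed and the blue lie between 16.98 and 45.0.

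The 24 regions that passed were read again with lists of equal length. Then 6 still passed: the TR4-leaning regions of NFIA and ARID3A, the region 71.0 kb upstream of MYB, and the NFIX regions at 66.1, 74.2 and 103 kb. The other 18, all of them towards BCL11A, no longer did. Among these only NFIX at 27.5 kb and HIC2 at 23.4 kb were still tested. Each was in 0 TR4-directed against 5 BCL11A-directed libraries (exact test, adjusted p = 0.0591). The rest were left with a peak in fewer than 4 of the 18 libraries, too few to be tested. Another 3 regions passed, at NFIA 176 kb, NFIX 56.3 kb and the ATF4 5′ end. With the MYC antibody libraries left out (6 against 6), 12 of the 24 passed, all towards BCL11A. Without replicate 3 of every group 20 passed and 4 did not: IKZF1 at 36.9 kb, NFIA at 5.36 kb, HIC2 at 23.4 kb and the region 71.0 kb upstream of MYB, while 2 others of the named regions then passed. With regions marked in as few as 1 library also tested, 20 passed, and the 4 lost were IKZF1 at 36.9 kb, NFIA at 5.36 kb, NFIX at 102 kb and the region 83.8 kb upstream of MYB (exact test, adjusted p = 0.0895 for each).

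**Figure D5:**
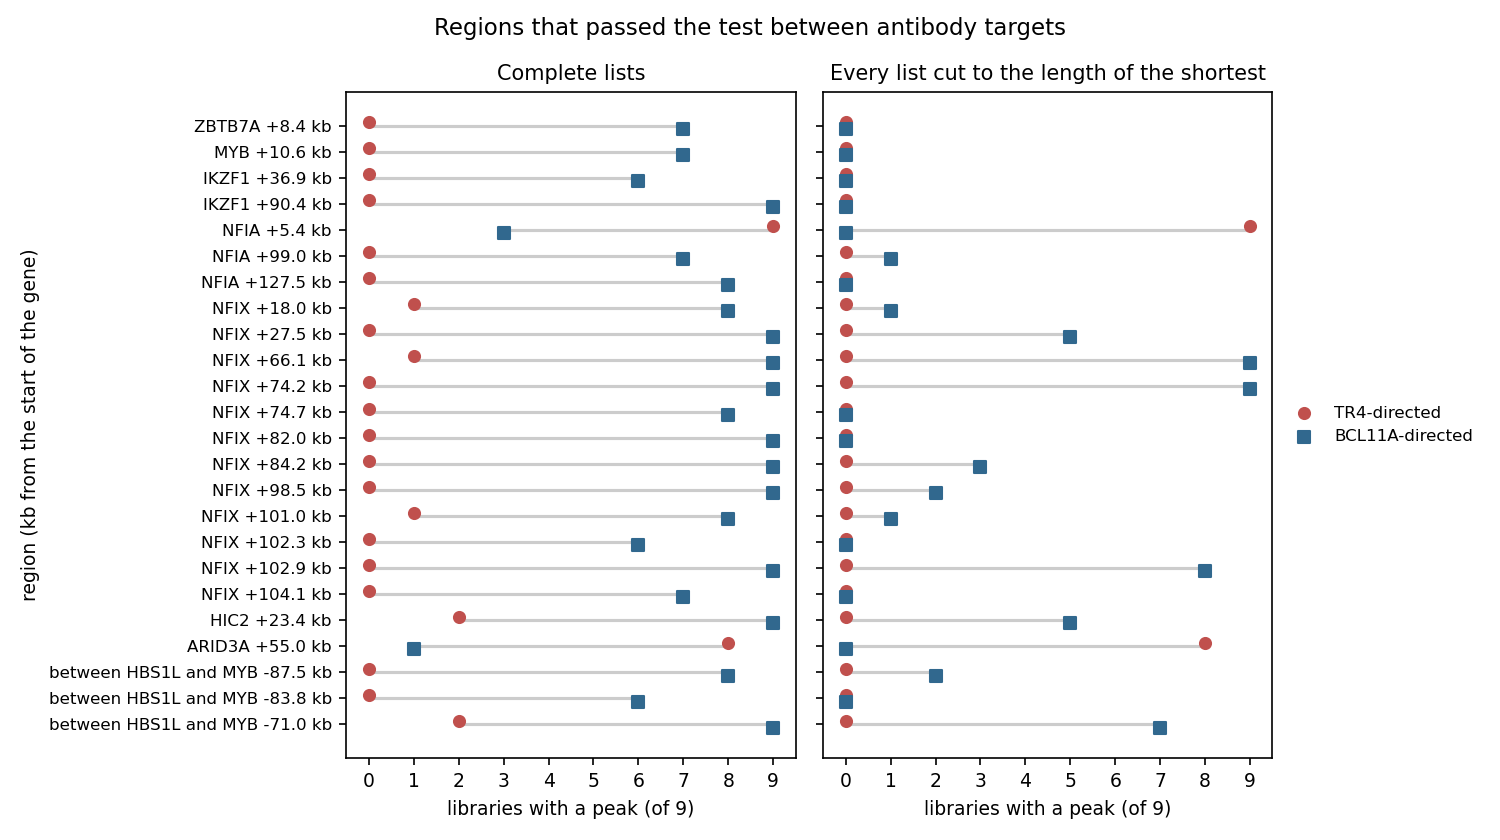
Libraries with a peak, out of 9 TR4-directed (red circles) and 9 BCL11A-directed (blue squares), at the 24 regions that passed, over complete lists (left) and over lists of 4621 peaks each (right). The TR4-leaning regions of NFIA and ARID3A keep 9 and 8 red libraries on both sides, and most blue squares move towards 0 on the right.

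Of the peaks in the 10 loci, 35.5% ± 6.96 (SD, n = 9) lay at gene ends with TR4 as target and 25.2% ± 1.96 (SD, n = 9) with BCL11A as target. Over all genes these shares were 63.8% ± 3.47 with TR4 and 49.4% ± 1.66 with BCL11A. The 10 include long records, SOX6 (772029 bases) and NFIA (385562 bases) among them, and the part of gene length was not tested. NFIX held on average 3.22 of 26.3 member peaks per TR4-directed library and 21.1 of 66.2 per BCL11A-directed library. Genes of the 10 with an end peak numbered 6.22 ± 1.79 per TR4-directed and 7.89 ± 1.05 per BCL11A-directed library, and those with a body peak 5.11 ± 1.69 per TR4-directed and 8 ± 1 per BCL11A-directed library. Among 30 other regulators of the fetal globin genes, 26 were tested at their ends and 6 passed, all towards BCL11A (KDM1A, TAL1, IGF2BP1, DNMT1, FOXO3 and GATA1), where 10.7% of all genes tested passed in that direction, with 4 of the 30 marked in all 18 libraries. Among 17 relatives of the members, 10 were tested at their ends and 0 passed (Fisher's exact test, adjusted over all genes), with 1 at an unadjusted p under 0.05. In gene bodies 5 of 18 other regulators tested passed (TAL1, LMO2, BCL11A, FOXO3 and IGF2BP3) and 2 of 11 relatives (IKZF3 and NFIB), all towards BCL11A, where 23.3% of all genes passed in that direction. These body names were chosen after their values were seen. IKZF3, an Ikaros relative, had a body peak in 0 TR4-directed against 8 BCL11A-directed libraries (exact test, adjusted p = 0.00455), and NFIB, a nuclear factor I gene, in 2 TR4-directed against 9 BCL11A-directed libraries (adjusted p = 0.0149).

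For 8 members marked at an end in at least 9 of the 18 libraries, the gene whose end folds ranked most alike over the 21 target libraries was named, by Spearman's correlation of the fold percentile within each list. They were GMPPB for ZBTB7A (rho = 0.965), DNAJB12 for MYB (0.945), RTF1 for HBS1L (0.874), HEBP1 for NFIA (0.882), DENND6A for NFIX (0.989), PROSER3 for HIC2 (0.902), SF3B1 for ARID3A (0.907) and SP1 for ATF4 (0.949). These are descriptions: the libraries share clones and list lengths, and each gene is the best of all protein-coding genes.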

How the data were processed

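Per the labels, nuclei of HUDEP-2 clones T, B and TB were profiled by CUT&RUN with MYC, TR4, HA or IgG antibodies. The submitters' processing notes name Trimmomatic, Bowtie2, Picard, SAMtools, MACS2 2.1.4 and GRCh38, without their roles or settings. The authors deposited 1 narrowPeak list per library, so replicates were not pooled. In the deposited lists the fold enrichment is a ratio per peak, significance is given as -log10 q (−log10 of the q-value), and the summit is an offset in bases. No read counts or depths are in the lists.

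From these, a gene or region was scored in each library as with or without a peak sharing at least 1 base, and the number of libraries was compared between targets by Fisher's exact test, two-sided, with Benjamini-Hochberg adjustment (threshold 0.05) over all genes or regions marked in 4 or more of the 18 libraries. Regions touched by an IgG peak were not tested. With 9 against 9 libraries the smallest p is 4.11e-05, and with 3 against 3 it is 0.1. The members, gene lists, tests and named-region rule (up to 4 regions per locus with a peak in the most libraries, 6 in the stretch, plus every region that passed) were chosen with earlier results of these data known. Exons and introns were not assigned. Values came from Python 3.11.15, pandas 2.3.3, numpy 2.4.6 and scipy 1.17.1, and the test was checked on simulated data. The simulated libraries were independent, with equal peak rates on both sides for unchanged rows. That check does not cover unequal list lengths or shared clones and antibodies. Alternatives changed list length, the q minimum, end windows, flanks, overlap, the library minimum, single libraries and the MYC antibody. Added after seeing the data were start-site windows and leaving out replicate 3 of every group. No 2 lists were identical.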

Additional observations from a re-analysis of the deposited data

Results flagged for a closer look

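Among 54 groups of 9 libraries examined for a single library far from the rest, 8 had one. The nominal chance rate of about 1 in 20 takes no account of tied counts or of the pooled antibody and clone groups. For peaks per locus, HBS1L had a BCL11A-directed library with 3 peaks (next 2), SOX6 a TR4-directed library with 4 (next 2), NFIX a TR4-directed library with 6 (next 4) and HIC2 a BCL11A-directed library with 5 (next 3). For the authors' fold, the ZBTB7A 5′ end region starting at 4066731 had a TR4-directed library at 19.8 (next 13.5). The NFIX region at 13077411 had a BCL11A-directed library at 13.1 (next 7.67), and the HIC2 region at 21440677 one at 34.0 (next 19.2). The HBS1L-MYB region at 135110094 had a BCL11A-directed library at 22.7 (next 16.7).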

How the results depend on the processing

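Genome-wide, the count of gene ends that passed was 1112 over complete lists, 1775 at equal list length (60.3% towards TR4, where complete lists gave 82 of 1112), 1696 with -log10 q of at least 5, and 711 without replicate 3 of every group, a setting chosen after seeing the data. For gene bodies, 1245 became 611 at equal length, 315 without the MYC antibody and 569 without replicate 3. For loci, 1317 became 2445 at equal length and 708 without replicate 3. For regions, 6747 became 3080 at equal length (51.8% towards TR4) and 1657 without the MYC antibody. Without the MYC antibody 0 gene ends and 0 loci passed Fisher's exact test after adjustment, with 961 and 1265 at an unadjusted p under 0.05. Leaving out 1 library at a time gave 1136 to 1992 gene ends, 1297 to 1800 bodies, 1352 to 1728 loci and 7694 to 9611 regions. For gene ends the count moved by over 1.5 times, to between 1741 and 1992, without MYC T 1 or 2, TR4 T 2, TR4 TB 1 or 2, MYC B 3, HA B 3, or HA TB 1 or 3. The start-site windows gave the 9 members in the promoter table the same calls. For NFIX the call came from another place. Its start site at 13023972 had a peak in 0 TR4-directed against 9 BCL11A-directed libraries, while the call at its ends came through the 3′ end.

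In the stretch from HBS1L to MYB the difference of -4.33 became -0.778 at equal length. It was also -4.33 with the MYC antibody alone (clone T minus clone B, exact permutation p = 0.3) and in clone TB alone (TR4 minus HA, p = 0.1, the smallest p that 3 against 3 allows), and -4.75 to -3.88 leaving out 1 library. Members with an end peak averaged 4.11 per TR4-directed and 4.67 per BCL11A-directed library at equal length. Those with a body peak averaged 3.56 per TR4-directed and 2.89 per BCL11A-directed library, the reverse of the order over complete lists. Without the MYC antibody the ends of NFIX had a peak in 0 TR4-directed against 6 BCL11A-directed libraries (exact test, adjusted p = 0.0583). That was the smallest adjusted p of any gene end in that setting, so even full separation could not pass there. The body of IKZF1 did not pass without the MYC antibody (exact test, adjusted p = 0.162) or without replicate 3 (exact test, adjusted p = 0.0559). Differences in libraries changed sign at equal length for the ZBTB7A body (to 3), the SOX6 locus (to 1), the ARID3A region at 984047 (to 2) and the ATF4 region at 39532658 (to 2), and without replicate 3 for the HIC2 region at 21420420 (to 1). None of these 5 passed in either setting. The causes of these changes were not tested beyond what each setting leaves out. No call among the members or their regions was lost by leaving out any single library.

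Replicate numbers are shared between groups, and in each of the 7 groups of 3 the list of replicate 3 was the shortest. The correlations of the libraries' deviations were small. Same-numbered libraries correlated between -0.0453 and 0.0654 and others between -0.0559 and 0.0492. Of 9 TR4-directed libraries, 4 correlated best with their own number. These values did not settle whether libraries of the same number were prepared together. With the replicate block 1268 gene ends, 1300 bodies, 1442 loci and 6909 regions passed, and the p in the stretch was 0.00025. Counts of calls from 1 antibody or clone alone could not be had, since 3 against 3 libraries cannot pass. Depth is unknown, so a missing peak can be a weak one.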
